A study of Mus musculus with 6 samples.

Results

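The Hox genes of mouse were read in B16F10 melanoma cells. Members were all protein-coding genes in the count files whose symbol is Hoxa, Hoxb, Hoxc or Hoxd followed by a number. That gave 39 genes of the 54838 in the files, with 11 in HoxA, 10 in HoxB, 9 in HoxC and 9 in HoxD. They stand under 40 identifiers, because Hoxd4 has a pair of them. RNA was sequenced from 3 samples cultured with GSK126 at 10 µM and 3 cultured with the vehicle DMSO, and the comparison is GSK126 against DMSO. Both groups are the same pigmented mouse line, B16F10, with no genotype named beyond the line. The sources used here do not give the length of treatment, nor whether the 3 samples of a group were separate cultures. The spread behind each p-value is that among these samples and may be technical. GSK126 inhibits EZH2, the enzyme of Polycomb repressive complex 2 (PRC2) that places a repressive methyl mark on histone H3.

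Hox genes encode homeodomain transcription factors that give cells their position along the body axis. They lie in 4 clusters, numbered so that genes with low numbers act towards the head and genes with high numbers towards the tail and the limb tips, and genes with the same number in different clusters are paralogs. The clusters are classical targets of Polycomb complexes, which keep them off where they are not used, and of trithorax-type complexes, which keep them on. Melanocytes derive from the neural crest.

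The libraries held 14250457, 14713373 and 14410812 counted reads with GSK126, and 13594939, 14072673 and 13597959 with DMSO. The labelled cell type was checked on 7 melanocyte markers, which summed to 22772 to 23945 CPM (read counts scaled to a common library size) with GSK126 and 21369 to 22574 CPM with DMSO. Of those markers 4 were higher (Mitf, Sox10, Dct and Pmel), 1 was lower (Mlana) and 2 did not pass, while 11.1% of all tested genes were called. The log2 fold changes of the higher ones ran from 0.15 for Dct to 0.60 for Mitf, and that of Mlana was -0.28. Of 5 keratinocyte markers 4 had no read, and the list summed to 0 CPM with GSK126 and 0 to 0.142 CPM with DMSO. Of 6 leukocyte markers 3 had no read, with 3.13 to 4.25 CPM with GSK126 and 1.93 to 3.34 CPM with DMSO, nearly all from Cd68. Of 4 endothelial markers 3 had no read, with 0.204 to 0.698 CPM with GSK126 and 0.294 to 0.667 CPM with DMSO. The 6 fibroblast markers summed to 17.1 to 22.4 CPM with GSK126 and 23.2 to 26.5 CPM with DMSO, mostly from the collagen gene Col1a2, and of the 3 that could be tested 0 passed. Their part in the results on Hox genes was not tested. GSK126 replicate 3 stood apart on principal component 2, which held 18.9% of the variance, at -23.9 against 15.2 and 15.9 for the other GSK126 samples.

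CpG-rich promoters are where Polycomb complexes are typically found in mammals, so the promoter windows of 3 members are shown, with each CG in capitals. They are RefSeq windows on build GRCm38.p6, from 250 bases before to 50 bases after the gene start, written 5′ to 3′ on the gene's own strand. Hoxd13 had the highest level of the family in the authors' length-scaled values. Hoxa11 is a member that was lower with GSK126, and Hoxa13 had no read in any library. Hoxd13 lies at chr2:74667975-74668274 on the plus strand, Hoxa11 at chr6:52245761-52246060 on the minus strand and Hoxa13 at chr6:52260831-52261130 on the minus strand.
Hoxd13: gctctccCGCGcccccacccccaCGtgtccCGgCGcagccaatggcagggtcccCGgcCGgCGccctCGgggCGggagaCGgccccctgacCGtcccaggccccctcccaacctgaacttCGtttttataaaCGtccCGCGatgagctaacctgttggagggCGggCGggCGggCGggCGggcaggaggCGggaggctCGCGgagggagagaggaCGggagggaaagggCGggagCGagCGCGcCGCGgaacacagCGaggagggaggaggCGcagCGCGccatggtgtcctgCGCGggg
Hoxa11: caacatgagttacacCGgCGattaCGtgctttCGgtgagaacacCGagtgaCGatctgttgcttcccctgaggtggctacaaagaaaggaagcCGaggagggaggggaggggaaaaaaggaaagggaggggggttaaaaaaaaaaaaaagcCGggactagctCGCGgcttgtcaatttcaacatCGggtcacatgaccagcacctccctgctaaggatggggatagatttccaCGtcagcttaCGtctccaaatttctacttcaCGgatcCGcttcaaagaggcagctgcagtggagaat
Hoxa13: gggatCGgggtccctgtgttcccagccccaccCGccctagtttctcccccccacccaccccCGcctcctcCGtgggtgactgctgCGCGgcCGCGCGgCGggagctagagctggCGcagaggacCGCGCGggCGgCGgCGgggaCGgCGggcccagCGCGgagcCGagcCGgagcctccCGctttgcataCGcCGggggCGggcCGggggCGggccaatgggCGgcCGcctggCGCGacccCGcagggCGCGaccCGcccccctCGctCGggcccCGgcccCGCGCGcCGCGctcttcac

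The motif counted was CG, which reads the same on both strands and cannot overlap itself. The Hoxd13 window held 37 of them, the Hoxa11 window 15 and the window of the silent Hoxa13 held 45. RefSeq gave 24 such windows for 22 of the 39 genes. Their median was 14.5 CG, against 7 over all 32851 windows of this length in the table, of which 94.6% hold at least 1. By class as defined next, the median was 22 for the 5 windows of silent genes, 11 for the 6 windows of genes with few reads and 15 for the 13 windows of expressed genes. The ranges overlapped, with 10 to 45 in silent, 4 to 25 in few-read and 4 to 37 in expressed genes. The windows of silent genes include none from HoxC, and neither Hoxb9 nor Hoxb13 has a window here. Hoxa9 and Hoxd4 were expressed with 4 CG each, and Hoxd1 was silent with 29. The count of CG is a description of these windows and says nothing about what is bound there.

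Each gene was placed in a class by its reads in all 6 libraries together, without regard to treatment. A gene was silent with 0 reads in every library, had few reads with an average under 10 and was expressed with an average of at least 10. The family split into 19 expressed genes (48.7%), 9 with few reads (23.1%) and 11 silent ones (28.2%). The other 21986 protein-coding genes were 52.6% expressed, 13.9% with few reads and 33.5% silent. A silent gene's 0 of 84640213 reads allows a level of up to 0.0354 CPM, and this limit covers counting error only. Just inside the bound were Hoxb7, with 10 to 16 reads per library, and Hoxb13 and Hoxa6, at averages of 13.8 and 14.2 reads, and just outside it Hoxb4 and Hoxa4, at 4.83 and 4.67.

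The clusters differed in how many of their genes were read. HoxA, on GRCm38 chromosome 6, had 9 expressed genes, with few reads for Hoxa4 and none for Hoxa13, the gene at its tail end. HoxB, on chromosome 11 from 96194316 to 96368256, had 7 expressed genes, few reads for Hoxb2 and Hoxb4 and none for Hoxb1. HoxD, on chromosome 2 from 74668310 to 74765142, had 3 expressed genes, Hoxd3, Hoxd4 and Hoxd13, at both ends of a run of 5 genes (Hoxd8 to Hoxd12) that held 0 to 6 reads each over all libraries. HoxC, on chromosome 15 from 102921103 to 103036852, had 0 expressed genes: Hoxc5, Hoxc8, Hoxc9, Hoxc11, Hoxc12 and Hoxc13 had no read, and Hoxc4, Hoxc6 and Hoxc10 had few. HoxA gave 54.9% of all Hox reads, HoxD 23.7%, HoxB 21.2% and HoxC 0.166%.

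By position, 5 of 8 genes numbered 1 to 3 were expressed, 8 of 15 numbered 4 to 8 and 6 of 16 numbered 9 to 13. The silent genes were 2 of 8 at positions 1 to 3, 2 of 15 at 4 to 8 and 7 of 16 at 9 to 13. All 3 genes at position 3 (Hoxa3, Hoxb3, Hoxd3) and both at position 7 (Hoxa7, Hoxb7) were expressed, and neither gene at position 12 was. Paralogs at the same position could be at opposite ends of the range. At position 13, Hoxd13 averaged 464 reads per library and Hoxb13 13.8, while Hoxa13 and Hoxc13 had none.

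**Figure D1:**
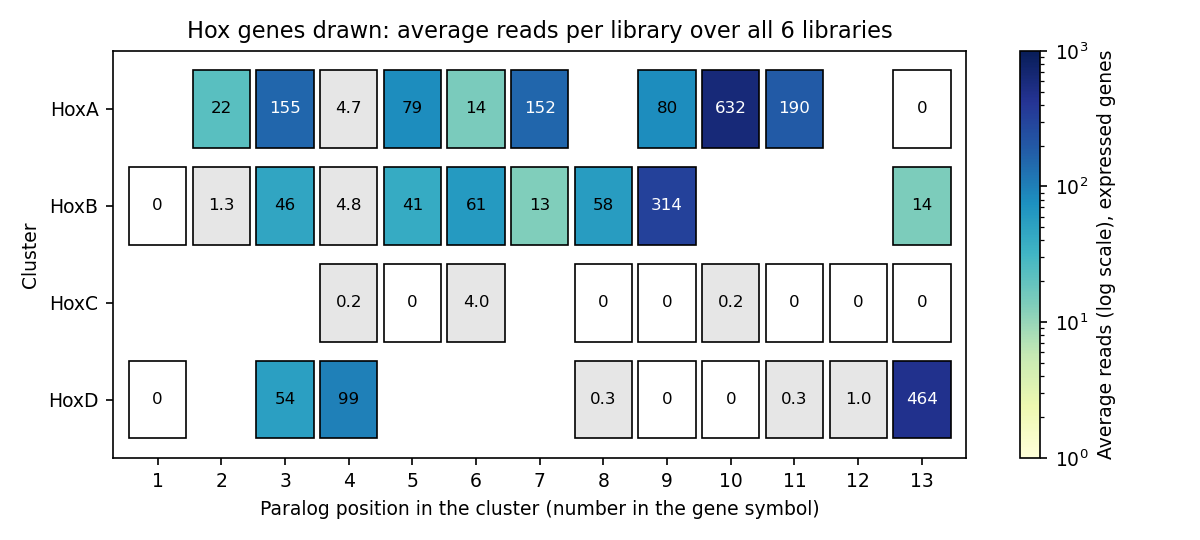
Average reads per library over all 6 libraries for the Hox genes drawn, with clusters as rows and the position number as columns. Coloured boxes are expressed genes on a log colour scale, grey boxes have few reads, and white boxes with 0 are silent. HoxC holds no coloured box, and Hoxd13 (464 reads) stands beside a run of boxes with at most 1.0.

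In the authors' length-scaled values, the order of levels was led by genes of high number. Hoxd13, which patterns digits and the genital tubercle, averaged 12.5 ± 0.107 FPKM with GSK126 and 14.1 ± 0.828 FPKM with DMSO (the authors' reads scaled for gene length and library size, SD, n = 3 each). Next with GSK126 came Hoxa10, which patterns the uterus and the lumbar region, at 6.47 ± 0.0753 FPKM, and then Hoxb9, a rib-patterning gene, at 5.04 ± 0.462 FPKM. With DMSO the order of this pair was the other way round, with 10.6 ± 0.667 FPKM for Hoxb9 and 6.81 ± 0.199 FPKM for Hoxa10. In each group the libraries of this pair did not overlap. Hoxa5 and Hoxa11 followed, at 2.56 ± 0.253 and 2.49 ± 0.354 FPKM with GSK126, which lie within their spread, and 3.45 ± 0.0687 and 3.69 ± 0.328 FPKM with DMSO, which do too. The other 14 expressed genes ran from 1.92 down to 0.304 FPKM with GSK126 and from 2.27 down to 0.210 FPKM with DMSO. Over all 18 neighbouring pairs in this order, the mean ± SD ranges were apart for 6 with GSK126 and for 7 with DMSO, and met for 12 with GSK126 and 11 with DMSO. The values for Hoxd4 in this order are those of its identifier with more reads. The order rests on the gene lengths behind the authors' values, which are not known here. In GENCODE M21 the exons of Hoxa10 cover 3270 bases, those of Hoxb9 2574 and those of Hoxd13 2483. Hoxa10 averaged 632 reads per library, Hoxb9 314 and Hoxd13 464. In CPM, Hoxa10 stood at 43.7 with GSK126 and 46.1 with DMSO, Hoxb9 at 14.5 and 30.5, and Hoxd13 at 31.0 and 35.0. Scaled by those exon lengths instead, Hoxa10 would stand above Hoxb9 in both groups and above Hoxd13 with GSK126. The order given above therefore holds for the authors' values only.

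The family's reads were lower with GSK126 in sum, and HoxB had the largest single share of the difference among the 4 clusters. All Hox genes together gave 168, 169 and 164 CPM with GSK126, against 202, 202 and 210 CPM with DMSO. The groups did not overlap, and the means were 167 ± 2.66 CPM with GSK126 and 204 ± 4.47 CPM with DMSO (SD, n = 3 each), a ratio of 0.816. In RNA from a whole culture, fewer cells expressing a gene and less RNA per cell cannot be told apart. No test is given for sums, since the members were chosen with earlier results known.

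HoxB gave 30.8, 32.8 and 27.1 CPM with GSK126, against 50.1, 48.4 and 47.4 CPM with DMSO, a ratio of 0.622. Hoxb9 made up 56.7% of the reads of this cluster, and without it HoxB stood at 15.8 ± 1.67 CPM with GSK126 and 18.2 ± 0.802 CPM with DMSO (SD, n = 3 each). HoxA gave 94.9, 94.8 and 96.5 CPM with GSK126 and 104, 107 and 114 CPM with DMSO (ratio 0.881). HoxD gave 42.0, 40.4 and 39.7 CPM with GSK126 and 47.6, 46.5 and 47.9 CPM with DMSO (ratio 0.861). In each of these 3 clusters every GSK126 library was below every DMSO library. HoxC held 5, 7 and 5 reads with GSK126 and 2, 2 and 5 with DMSO, which overlap. Single genes dominated the sums, with Hoxa10 at 44.1% of HoxA reads and Hoxd13 at 75.0% of HoxD reads.

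**Figure D2:**
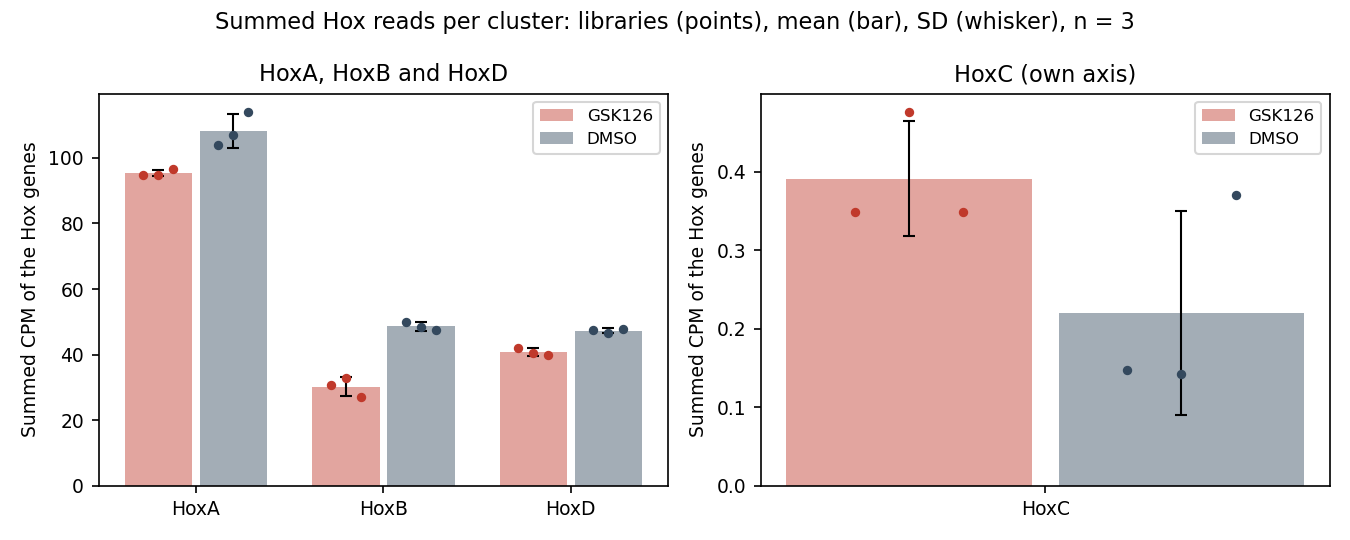
Summed CPM of the Hox genes of each cluster, with GSK126 to the left of DMSO, points for libraries, bars for means and whiskers for SD (n = 3); HoxC has its own axis. HoxB shows the widest gap, 30.2 CPM with GSK126 against 48.6 CPM with DMSO, and the HoxC points rest on 2 to 7 reads per library.

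Gene by gene, 3 members passed the test and 17 identifiers did not. The same 20 identifiers that are expressed by the group-blind bound also had enough reads for the test across all genes (edgeR's quasi-likelihood test, Benjamini-Hochberg adjusted over 13601 genes, threshold 0.05). Hoxb9 and Hoxa11 were lower and Hoxb13 was higher with GSK126. Of all tested genes 11.1% were called, 5.87% higher and 5.18% lower, so 3 of 20 is near that background. The fitted log2 fold change was negative for 17 of the 20, against 50.1% of all tested genes, and the median was -0.19 against -0.00048 over all tested genes. The sign of Hoxa2, Hoxa3, Hoxa9, Hoxb5 and the second Hoxd4 identifier changed under at least 1 other setting. GSK126 and DMSO libraries did not overlap for 9 of the 20, against 34.4% of all tested genes. The GSK126 libraries were all below for 8 (16.8% of all tested genes) and all above for 1 (17.6%). These counts describe the members and are no test of them, since neighbouring members can share exons.

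**Figure D3:**
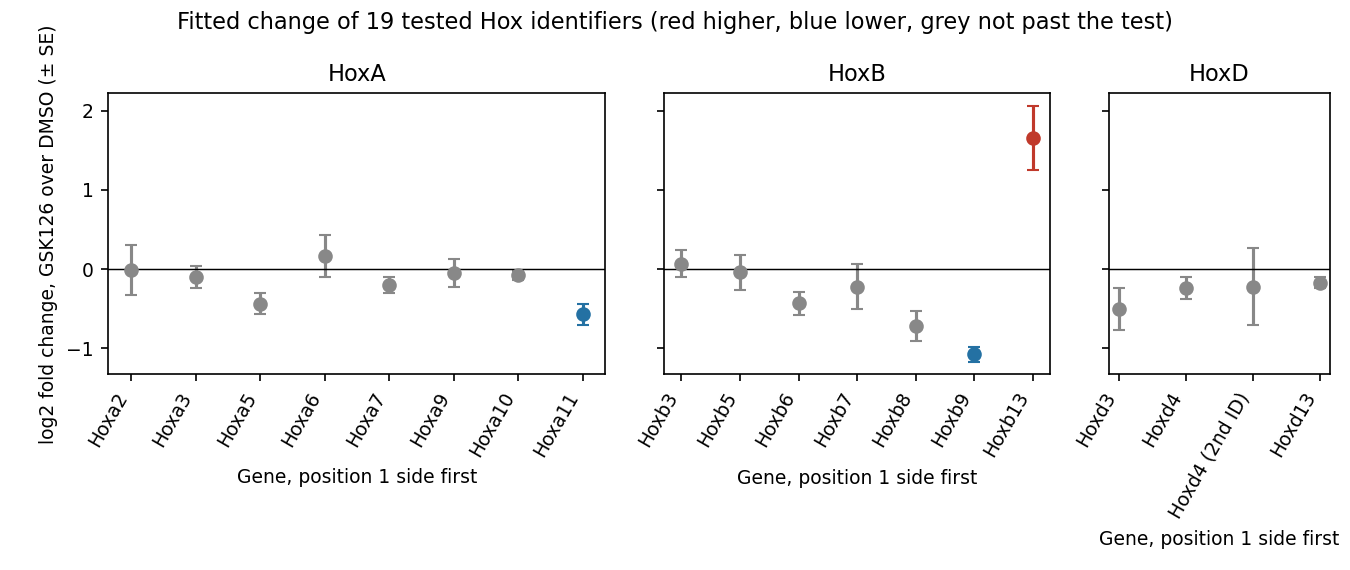
Log2 fold change of GSK126 over DMSO (± SE from edgeR) for 19 of the tested Hox identifiers, in order of position in HoxA, HoxB and HoxD. Blue marks the calls Hoxa11 (-0.57) and Hoxb9 (-1.07), red marks Hoxb13 (1.65) and grey marks members that did not pass the test.

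Hoxb9 fell with GSK126 to 47.5% of its level with DMSO. It had 205, 233 and 190 reads with GSK126, against 443, 413 and 397 reads with DMSO. Every GSK126 library was below every DMSO library. In CPM the levels were 14.5 ± 1.30 with GSK126 and 30.5 ± 1.83 with DMSO (SD, n = 3 each), a log2 fold change of -1.07 (SE 0.09, edgeR adjusted p = 0.00130). The call held in all 15 alternatives, with log2 fold changes of -1.14 to -0.94. Hoxb9, on chromosome 11 from 96271457 to 96276595, shares no exon with another gene in the count files, by the exons of GENCODE M21.

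The HoxB genes around Hoxb9 had varied fitted changes, and whether these differ from each other or from that of Hoxb9 was not tested. Its neighbour Hoxb8, which acts in thoracic and spinal cord patterning, had 41, 58 and 37 reads with GSK126 and 66, 76 and 70 with DMSO. The groups did not overlap, but the change did not pass the test (log2 fold change -0.72 ± 0.19 SE, edgeR adjusted p = 0.0564). Without GSK126 replicate 2 it did (-0.92, edgeR adjusted p = 0.0394). Hoxb6 also had no overlap, with 53, 55 and 52 reads with GSK126 and 64, 79 and 62 with DMSO (log2 fold change -0.43, edgeR adjusted p = 0.109). Hoxb7, between these 2 genes, had 15, 10 and 12 reads with GSK126 and 16, 12 and 13 with DMSO. Its groups overlapped (log2 fold change -0.22 ± 0.29 SE). Towards the head end, Hoxb5 had 52, 39 and 33 reads with GSK126 and 37, 47 and 37 with DMSO, and Hoxb3 had 51, 53 and 42 with GSK126 and 47, 41 and 44 with DMSO. For both the groups overlapped, with log2 fold changes of -0.04 (SE 0.22) and 0.07 (SE 0.17). On the other side of Hoxb9, towards Hoxb13, the lincRNA Gm53 had 10, 44 and 23 reads with GSK126 and 37, 50 and 34 with DMSO (edgeR adjusted p = 0.338). The processed pseudogene Gm11539, next to it, had 219, 229 and 182 reads with GSK126 and 191, 237 and 225 with DMSO (edgeR adjusted p = 0.533). Neither passed the test, and both groups of libraries overlapped.

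Hoxb13, the tail-most HoxB gene and a gene of tail and prostate development, was the only Hox call in the upward direction. It had 16, 30 and 18 reads with GSK126 and 6, 4 and 9 reads with DMSO. The groups did not overlap, and the levels stayed low, at 1.47 ± 0.498 CPM with GSK126 and 0.464 ± 0.192 CPM with DMSO (SD, n = 3 each; log2 fold change 1.65 ± 0.40 SE, edgeR adjusted p = 0.0422). The gene passed the filter on low counts (0.706 CPM) only through its GSK126 libraries, although its average of 13.8 reads passes the group-blind bound. The call ended with any 1 library left out (edgeR adjusted p from 0.0663 to 0.131). DESeq2 gave it no adjusted p.

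**Figure D4:**
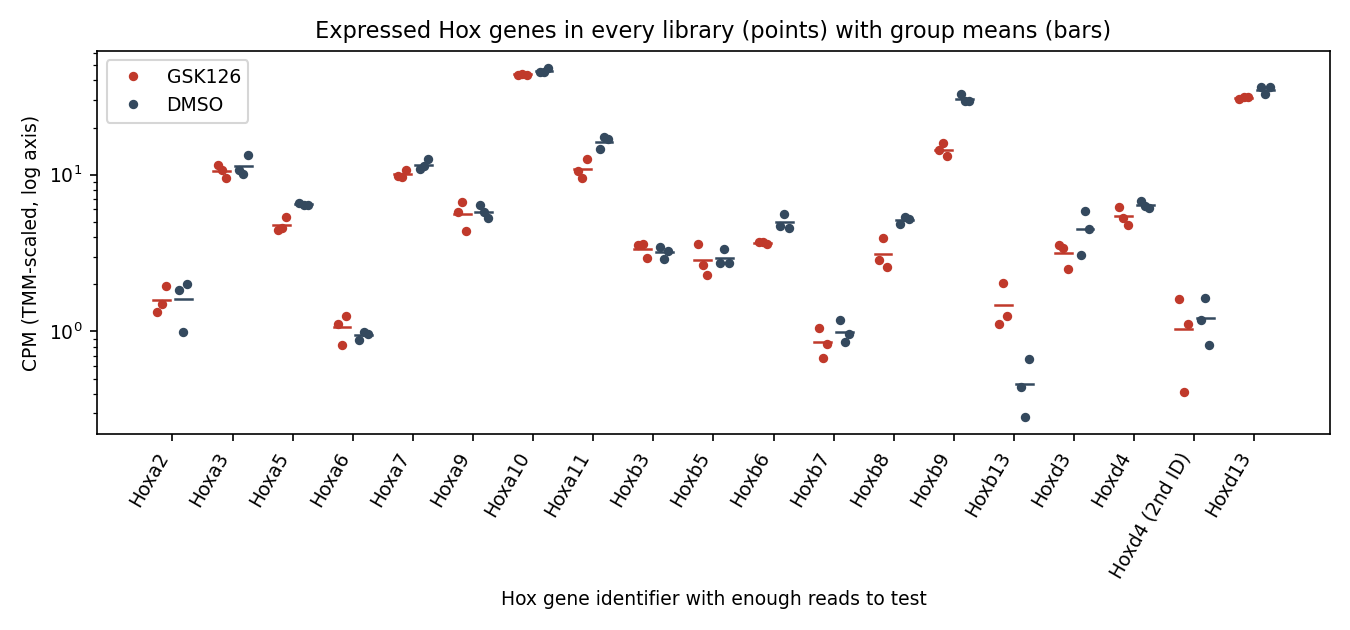
CPM of 19 tested Hox identifiers in every library (points) with group means (bars) on a log axis, GSK126 to the left of DMSO. Hoxb9 (14.5 CPM with GSK126, 30.5 with DMSO) and Hoxb13 (1.47 with GSK126, 0.464 with DMSO) stand clearly apart, and 10 of the 19 identifiers overlap between the groups.

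In HoxA, Hoxa11, which acts in the forearm, kidney and uterus, was lower. It had 151, 141 and 182 reads with GSK126 and 198, 243 and 228 with DMSO, with no overlap. The levels were 10.9 ± 1.59 CPM with GSK126 and 16.2 ± 1.48 CPM with DMSO (SD, n = 3 each; log2 fold change -0.57 ± 0.13 SE, edgeR adjusted p = 0.0349). Hoxa11 shares 800 bases (35.0% of its exon length) with the antisense RNA Hoxa11os, and since no strand setting is given for the counts their reads cannot be told apart. Hoxa11os had 52, 62 and 57 reads with GSK126 and 76, 74 and 83 with DMSO (log2 fold change -0.52 ± 0.14 SE, edgeR adjusted p = 0.0569). Summed, the locus had 203, 203 and 239 reads with GSK126 and 274, 317 and 311 with DMSO, and that sum passed the test (-0.56 ± 0.10 SE, edgeR adjusted p = 0.0188). The call of Hoxa11 alone ended with any library but GSK126 replicate 3 left out (edgeR adjusted p at most 0.115) and held in 6 of 15 alternatives.

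The HoxA genes beside Hoxa11 had smaller fitted changes, and whether these differ from that of Hoxa11 was not tested. Hoxa10 had 623, 650 and 622 reads with GSK126 and 618, 633 and 646 with DMSO. After scaling for library size the GSK126 libraries were all just below, at 43.7 ± 0.442 CPM with GSK126 and 46.1 ± 1.54 CPM with DMSO (SD, n = 3 each; log2 fold change -0.08 ± 0.06 SE, edgeR adjusted p = 0.442). Hoxa9, a regulator of blood stem cells, had 83, 98 and 63 reads with GSK126 and 87, 81 and 71 with DMSO, which overlap. Hoxa5, which acts in lung and neck skeleton, had 64, 67 and 77 reads with GSK126 and 90, 90 and 87 with DMSO. Its groups did not overlap and the test was not passed on counts (log2 fold change -0.44 ± 0.13 SE, edgeR adjusted p = 0.0761), while limma on log2(FPKM + 0.1) called it (-0.42, adjusted p = 0.0422). Hoxa7 had 141, 143 and 154 reads with GSK126 and 147, 160 and 170 with DMSO, with no overlap in CPM (log2 fold change -0.20, edgeR adjusted p = 0.264). Hoxa6, a low member, had 16, 12 and 18 reads with GSK126 and 12, 14 and 13 with DMSO.

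Towards the head end of HoxA, Hoxa2 and Hoxa3 did not pass the test. Hoxa2, which sets the identity of the second pharyngeal arch, had 19, 22 and 28 reads with GSK126 and 25, 14 and 27 with DMSO. Hoxa3, needed for thymus and parathyroid, had 166, 158 and 136 reads with GSK126 and 146, 142 and 180 with DMSO. The groups overlapped for both, and their log2 fold changes were -0.01 (SE 0.31) for Hoxa2 and -0.10 (SE 0.14) for Hoxa3. Hoxa2 shares 267 bases of exon with Gm28308, which had 14 reads over all libraries, and the sum of both did not pass either (0.09 ± 0.32 SE, edgeR adjusted p = 0.881).

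In HoxD, Hoxd13 had 439, 461 and 447 reads with GSK126 and 494, 458 and 487 with DMSO. In CPM the groups did not overlap, at 31.0 ± 0.363 with GSK126 and 35.0 ± 2.09 with DMSO (SD, n = 3 each), but the change did not pass the test (log2 fold change -0.17 ± 0.07 SE, edgeR adjusted p = 0.171). Hoxd3 and Hoxd4, which pattern the upper neck vertebrae, overlapped between the groups. Hoxd3 had 51, 50 and 36 reads with GSK126 and 42, 82 and 61 with DMSO (edgeR adjusted p = 0.266). Hoxd4 had 89, 78 and 69 reads with GSK126 and 93, 89 and 83 with DMSO under its first identifier (edgeR adjusted p = 0.313), and 23, 6 and 16 with GSK126 and 16, 23 and 11 with DMSO under the second. Both genes share exons with each other, with the annotated gene Gm28230 and with the antisense RNA Hoxd3os1. Gm28230 had 64, 83 and 116 reads with GSK126 and 96, 99 and 93 with DMSO, and Hoxd3os1 had 32, 44 and 38 with GSK126 and 44, 46 and 58 with DMSO. Summed, that locus had 259, 261 and 275 reads with GSK126 and 291, 339 and 306 with DMSO, with no overlap and just short of the test (log2 fold change -0.31 ± 0.08 SE, edgeR adjusted p = 0.0542).

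Other features that share exons with expressed members held few reads over all 6 libraries. Hoxa3 shares exons with Hoxaas2 (24 reads), Hoxaas3 (25), 5730596B20Rik (4), Gm28308 (14) and Gm29430 (1), and Hoxa7 shares them with Hoxaas3 too. Those of Hoxa9 hold Mir196b (2 reads), those of Hoxb3 and Hoxb5 overlap Hoxb3os (0) and Hoxb5os (2), and those of Hoxd3 overlap Haglr (9). Each partner in this group held under 10% as many reads as the member it overlaps.

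The genes with few reads gave no test. Hoxc6 led HoxC with 5, 6 and 5 reads with GSK126 and 1, 2 and 5 with DMSO, Hoxa4 had 2, 4 and 4 with GSK126 and 7, 9 and 2 with DMSO, and Hoxb4 had 6, 5 and 4 with GSK126 and 1, 6 and 7 with DMSO. These groups overlap or touch. Hoxd12, next to Hoxd13, had 0 reads in all 3 GSK126 libraries and 2, 1 and 3 reads with DMSO. Evx2, the homeobox gene on the other side of Hoxd13, likewise had 0 with GSK126 and 3, 2 and 1 with DMSO. Both rest on 6 reads over all libraries, too few to test. Evx1, beside HoxA, and the ParaHox genes Gsx1, Gsx2 and Pdx1, relatives of the Hox family, had 0 reads in every library. Hoxb2, Hoxc4, Hoxc10, Hoxd8 and Hoxd11 had at most 3 reads in any library. The silent genes, Hoxa13, Hoxb1, Hoxc5, Hoxc8, Hoxc9, Hoxc11, Hoxc12, Hoxc13, Hoxd1, Hoxd9 and Hoxd10, had 0 reads in each of the 3 GSK126 and the 3 DMSO libraries.

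Partners and regulators of Hox proteins were read from lists. The 9 TALE cofactors, homeodomain proteins that bind DNA together with Hox proteins, were all tested, and 0 were called. The most abundant, Meis2, stood at 74.5 ± 0.267 CPM with GSK126 and 83.9 ± 4.11 CPM with DMSO (SD, n = 3 each; log2 fold change -0.17, edgeR adjusted p = 0.0919). Of 10 trithorax-side activators and histone demethylases, 0 were called, and Psip1, whose product tethers the Kmt2a and menin complex to chromatin, led in abundance (log2 fold change -0.08 ± 0.07 SE). Ezh2, the drug's target, had 2736, 2904 and 2753 reads with GSK126 and 2611, 2582 and 2594 with DMSO (log2 fold change 0.03, edgeR adjusted p = 0.669). It is 1 of 13 Polycomb core genes, all tested, of which 1 was higher, 1 was lower and 11 did not pass. Over all tested genes, 11.1% were called, 5.87% higher and 5.18% lower, so the counts of this list are near that background. Rnf2, a ubiquitin ligase of Polycomb repressive complex 1, had 1350, 1485 and 1460 reads with GSK126 and 1180, 1204 and 1073 with DMSO (log2 fold change 0.24 ± 0.06 SE, edgeR adjusted p = 0.0426). Phc2, another subunit of that complex, had 1154, 1167 and 1219 reads with GSK126 and 1416, 1305 and 1278 with DMSO (log2 fold change -0.25 ± 0.06 SE, edgeR adjusted p = 0.0435). Neither gene's groups overlapped. The call of Rnf2 ended with any 1 library left out (edgeR adjusted p from 0.0665 to 0.127), and that of Phc2 with any but GSK126 replicate 3 left out (at most 0.132).

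Among 9 upstream regulators of Hox expression, 4 had no read, Cdx1, Cdx2 and Cdx4 among them, and 5 were tested. Of those 5, 2 were higher, 1 was lower and 2 did not pass, while 11.1% of all tested genes were called. Egr2, which did not pass, had 16, 75 and 32 reads with GSK126 and 4, 12 and 9 with DMSO (log2 fold change 2.20 ± 0.64 SE, edgeR adjusted p = 0.0713). It passed with DESeq2 (adjusted p = 0.00715), with the replicate number as a term (edgeR, 0.0362) and without GSK126 replicate 1 (edgeR, 0.0443). Rarb, a retinoic acid receptor, had 187, 179 and 185 reads with GSK126 and 114, 118 and 95 with DMSO. Its groups did not overlap (log2 fold change 0.68 ± 0.11 SE, edgeR adjusted p = 0.0112). Gdf11, a growth factor that promotes tail-end Hox expression, had 686, 715 and 572 reads with GSK126 and 380, 465 and 422 with DMSO (log2 fold change 0.56 ± 0.10 SE, edgeR adjusted p = 0.0175). These groups did not overlap either, and the call ended when GSK126 replicate 1 or 2, or DMSO replicate 1 or 3, was left out (edgeR adjusted p at most 0.0669). The receptor gene Rarg had 703, 726 and 653 reads with GSK126 and 763, 803 and 804 with DMSO (log2 fold change -0.26 ± 0.06 SE, edgeR adjusted p = 0.0391), a call that ended with any 1 library left out (edgeR adjusted p from 0.0656 to 0.125).

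Noncoding genes inside the clusters and the coding genes around them gave 0 calls. Of 17 listed noncoding RNAs of the clusters, 5 had no read, Hotair and Hottip among them, 9 had too few to test and 3 were tested, with a median log2 fold change of -0.52. Among those 3, Hoxa11os and Hoxd3os1 share exons with Hox genes named above. Of 46 other annotated features within the cluster spans, 15 of the listed RNAs included, 7 were tested and 0 were called. The 24 nearest coding neighbours, 3 on each side of each cluster, had 19 tested members, 0 called and a median log2 fold change of 0.01. At an unadjusted p below 0.05, 7 of the 20 Hox identifiers and 3735 of the 13601 tested genes would pass.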

How the data were processed

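RNA-seq of B16F10 cells was read from per-sample tables of counts per gene deposited by the authors, and from their deposited FPKM table of the same libraries, which served levels per length and an alternative test. Per the submitters' processing notes, CASAVA 1.8 and HISAT2 were used with GRCm38.p4/mm10. The sources used here name no counter, strand setting or annotation. Library totals were 13594939 to 14713373 counts, and the limit given for silent genes covers counting error only. Values after ± are SDs over 3 samples or, where marked SE, standard errors of the edgeR fit. Counts were tested in R 4.3.3 with edgeR 4.0.16 (filterByExpr, TMM factors 0.994 to 1.007, quasi-likelihood F test, group as the only term) on 13601 genes, with Benjamini-Hochberg adjustment over all of them. CPM values use TMM-scaled totals. Alternatives used DESeq2 1.42.0, limma 3.58.1, other normalizations, filters, leaving out each library, the replicate number as a term, and, added after the data were seen, sums over exon-sharing features (exons from GENCODE M21). The fit was tested on simulated data, where edgeR recovered 54 of 100 changes of 1.5-fold and 88 of 100 of 2-fold. The changed genes were drawn only from those above a bound on CPM. A real change of 1.5-fold or less can thus fail to pass. Replicates differed by more than counting noise (chi-square per degree of freedom 7.60 to 14.3).

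The members and lists were chosen with earlier results of these data known. All Hox genes enter the counts and sums, 1 of them and 1 listed regulator are not reported here by name, and other lists give their called members or else the most abundant (neighbours only if called). Features overlapping exons of an expressed Hox gene are named with their reads, except the partner of the gene not reported. Gm53, Gm11539 and Evx2 were named for their place beside Hox genes after their values were seen. Egr2 was named for its calls under other settings, also after its values were seen. Of the 40 Hox identifiers, 39 are in GENCODE M21 and 38 have the same start and end there.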

Additional observations from a re-analysis of the deposited data

How the results depend on the processing

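The replicate numbers did not pair the samples (correlations of deviations 0.0149, 0.0146 and -0.0611, none of the samples closest to its own number), and with the replicate block 408 genes were called, with 0 Hox identifiers higher, 1 lower, 0 Polycomb core genes and 1 upstream regulator. That regulator was Egr2 (edgeR adjusted p = 0.0362), while Rarb (0.0562), Gdf11 (0.0589) and Rarg (0.123) did not pass. Without a filter on low counts, 899 genes were called, with 0 Hox identifiers higher, 1 lower and 0 Polycomb core genes. Limma on log2(FPKM + 0.1) and on log2(FPKM + 1) called 0 Hox identifiers higher and 0 Polycomb core genes. DESeq2 called 0 Hox identifiers higher, with no adjusted p for Hoxb13, and 1 Polycomb core gene. Leaving out 1 library gave 529 to 1243 called genes, 0 Hox identifiers higher, 1 to 2 lower, 1 to 2 upstream regulators, 0 to 1 Polycomb core genes and 0 to 1 neighbours. The lone neighbour was Cbx3, without GSK126 replicate 2. The log2 fold change of Hoxa2 turned to 0.0289 under limma-voom, 0.00345 with the block, 0.0225 and 0.00189 with FPKM (pseudocounts 0.1 and 1) and 0.0938 with exon-sharing features summed. With 1 library left out, it ran from -0.27 to 0.17, Hoxa3 from -0.18 to 0.0246, Hoxa9 from -0.19 to 0.10, Hoxb5 from -0.25 to 0.0948 and the second Hoxd4 identifier from -0.67 to 0.16. None of these passed the test, and the cause was not tested. Without their most abundant member, the log2 ratio of summed CPM was -0.27 for HoxA, -0.20 for HoxB, -0.35 for HoxD and -0.36 for all clusters, and -0.54 for HoxB with all features in its span. By construction these are other sums. Of the 3 Hox calls, that of Hoxb9 alone held in every alternative run. The 20 Hox identifiers that were silent or had few reads were not tested at this depth.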

Other observations

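Some coding neighbours of the clusters varied between samples of 1 group by more than most Hox genes did. Hnrnpa3, an RNA-binding protein gene that lies past Mtx2 from HoxD, had 386, 1394 and 230 reads with GSK126 and 415, 1293 and 854 with DMSO. Cbx3, a heterochromatin protein gene that lies past Skap2 and Snx10 from HoxA, had 1104, 2530 and 1167 reads with GSK126 and 2497, 2708 and 2549 with DMSO (log2 fold change -0.77 ± 0.29 SE, edgeR adjusted p = 0.132). Without GSK126 replicate 2 it passed the test (-1.25 ± 0.06 SE, edgeR adjusted p = 0.000977). Atf7, a transcription factor gene that lies past Calcoco1 and Atp5g2 from HoxC, had 1259, 1306 and 1494 reads with GSK126 and 1136, 1226 and 482 with DMSO. These genes were chosen after their values were seen.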
